A study of Mus musculus with 3 samples.

Results

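Colon fibroblasts are the matrix-building stromal cells of the gut wall, and 757 barcodes of this kind were described here, of 16406 barcodes that passed quality limits and 21449 deposited in all. They were chosen by measured values, so the values of the choosing genes are given as a description. A barcode was a member if it had at least 300 genes detected and at most 25% of its UMIs (unique molecular identifiers, each standing for 1 captured RNA molecule) from mitochondrial genes. It also needed at least 10 UMIs in sum from the 9 genes Col1a1, Col1a2, Col3a1, Pdgfra, Dcn, Lum, Dpt, Mfap5 and Col6a1, with at least 3 of them detected. Barcodes with 5 or more UMIs in sum from the vessel, muscle and mesothelial genes Pecam1, Cdh5, Myh11 and Msln were left out. So were those with 5 or more from the B cell genes Cd79a, Cd79b and Ms4a1, and those with 1% or more of their UMIs from the 6 epithelial genes Epcam, Krt8, Krt19, Car1, Zg16 and Muc2.

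The cells came from the colon of germ-free mice, which carry no microbes, and were measured with droplet 3′ RNA sequencing. There was 1 library per group. The PBS group was of germ-free mice given PBS, a salt solution, and the germ-free mice of the other groups were colonized, with BT WT in one and BT mutant in the other. What BT stands for, which mutation was made, the mouse strain, age or sex, the time of colonization and how many animals went into a library are not stated in the labels used here. With 1 library per group nothing below is a test between groups: intervals are 95% intervals of counting error alone, and a difference between libraries cannot be told apart from a difference between the treatments.

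Fibroblasts secrete the fibrillar collagens and the proteins that join them into a network. In the gut wall they lie in layers: some sit against the crypt epithelium and send it BMP and Wnt signals, some lie in the lamina propria, and some lie deeper around vessels and in the submucosa, where Pi16, Cd34 and Ly6a mark them. They also release chemokines that call in leukocytes, and they answer type I interferon by switching on a shared set of antiviral genes.

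The PBS library held 151 members, or 4.72% of its 3198 kept barcodes (interval 4.01 to 5.52%, exact Clopper-Pearson). In the BT WT library 206 of 7070 kept barcodes were members (2.91%, 2.53 to 3.33%). The BT mutant library had 400 of 6138 (6.52%, 5.91 to 7.16%). The share was highest in the BT mutant library, and it depended on the limit on mitochondrial UMIs: with at most 10% allowed, the shares were 5.85%, 6.40% and 12.9%, so PBS and BT WT changed order. The median kept barcode had 5.77% mitochondrial UMIs in the PBS library, 12.5% in BT WT and 11.2% in BT mutant, and its part in the shares was not tested.

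Values given in threes below are in the order PBS, BT WT, BT mutant. Members carried a median of 9292, 7980 and 6710 UMIs, and 1662998, 1658283 and 2729628 UMIs in sum. The cut fell in a sparse region: 0, 2 and 7 members had 10 to 12 UMIs from the 9 genes, and 3, 4 and 9 barcodes that met the other limits had 7 to 9. The libraries shared 12 barcodes (PBS and BT WT), 8 (PBS and BT mutant) and 19 (BT WT and BT mutant), and no shared barcode was a member in both libraries of a pair.

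The defining genes were present. Dcn, which codes for the collagen-binding proteoglycan decorin, had at least 1 UMI in 151 of 151, 206 of 206 and 399 of 400 members. Its level was 13462, 13647 and 14855 CPM (a gene's UMIs relative to all UMIs of the same members, on the counts-per-million scale) in the members, against 128, 71.2 and 124 CPM in all other kept barcodes. Dpt, which codes for the matrix protein dermatopontin, stood at 1922, 2559 and 2533 CPM, and Pdgfra, the receptor for platelet-derived growth factors, at 621, 380 and 534 CPM. Apart from Pdgfra, Lum and Dpt, which the rule used, the genes that most set members apart from other kept barcodes were Inmt, a small-molecule methyltransferase, Ms4a4d, Clec3b, Mmp2, a gelatin-cutting protease, Tnfaip6, Scara5 and Mgp, a calcification inhibitor. Each was at least 141 times higher in CPM in members than in the rest in every library, as the description of a chosen group.

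Some members held RNA of other cells. A member was called mixed if at least 1% and at least 10 of its UMIs came from 1 of 11 marker lists of other cell types, a rule set after the data were seen. It marked 11, 8 and 14 members, with 13.3%, 5.70% and 5.97% of the members' UMIs, and 8, 7 and 13 of them by colonocyte genes. A PBS barcode of 85537 UMIs held 92.8% of all fat cell marker UMIs in that library's members, including 94.3% of Cfd and 98.0% of Adipoq, so these genes are not read as fibroblast levels here. A BT WT barcode held 74.9% of the 199 macrophage marker UMIs there, including all of Ccl4. In the PBS library 1 barcode that the mixed rule did not mark held 90.9% of Spink4. Of all goblet cell marker UMIs in PBS members, 1 barcode held 62.0%. These markers stood at 527 CPM with all PBS members and at 580 CPM without mixed ones, so the rule left goblet cell RNA in. B cell markers stood at 17.4, 7.84 and 6.59 CPM in members against 2587, 3211 and 3465 CPM in B cell barcodes, and 2, 5 and 2 of the 10 genes were at 0 in members. The 10 endothelial markers summed to 147, 221 and 164 CPM in members against 95.3, 70.6 and 115 CPM in other kept barcodes, with 5, 3 and 2 of the genes at 0 in members. Cldn5 and Tie1 were at 0 in PBS and BT WT members, and Cldn5 had 2 UMIs in BT mutant. The part of these cells in the results was not tested. Counts over the lists named below are given with all members and, where the number called differed, without the mixed ones.

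The members fell into subtypes cut by the amounts of 3 of their own genes. A Pdgfra-high member had at least 3 Pdgfra UMIs and more of them than of Dpt and Mfap5 together. A Dpt Mfap5 member had at least 3 UMIs of those 2 genes together and more of them than of Pdgfra, and the rest had too few of either or equal numbers. The Pdgfra-high subtype held 10 of 151 PBS members (6.62%, 3.22 to 11.8%), 5 of 206 BT WT members (2.43%, 0.793 to 5.57%) and 8 of 400 BT mutant members (2.0%, 0.867 to 3.90%). The Dpt Mfap5 subtype held 88.1%, 90.8% and 89.8%. The cut did not part the members into 2 clouds: 12, 14 and 26 members lay within 1 UMI of it, and Pdgfra was detected in 136, 171 and 343 members, most of them in the Dpt Mfap5 subtype.

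**Figure D1:**
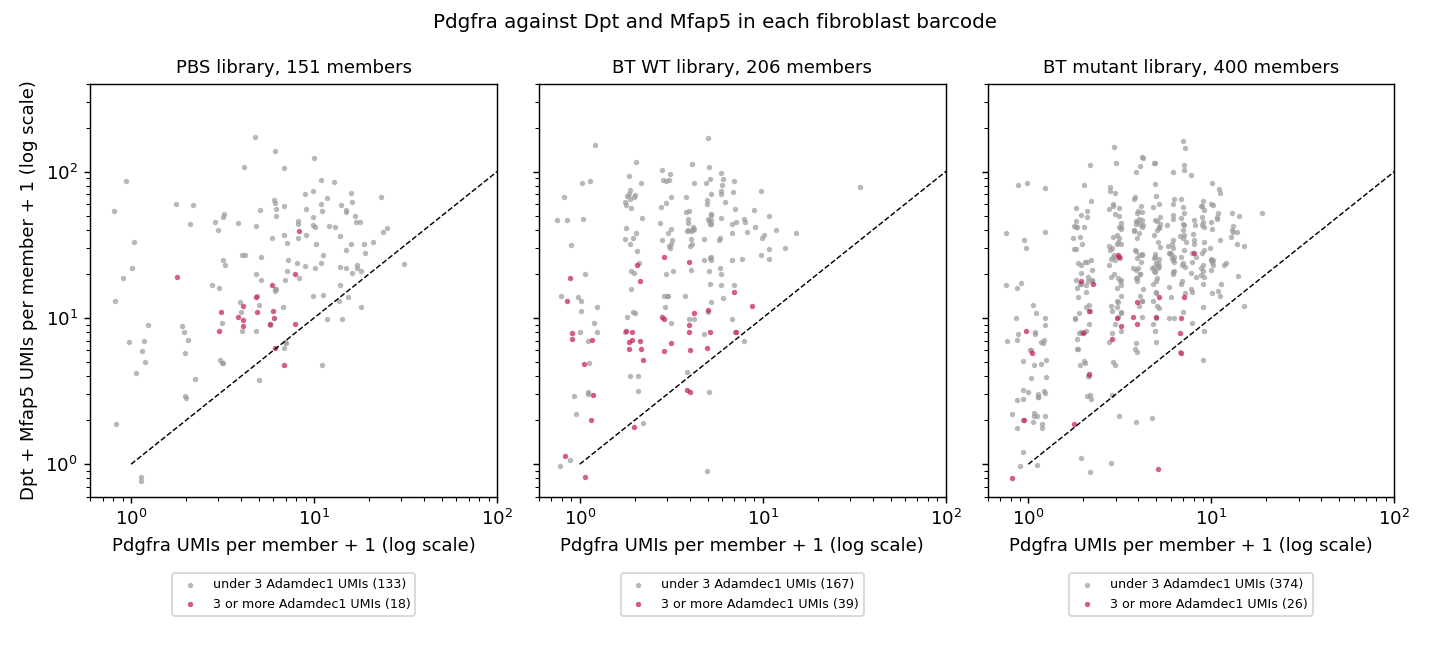
UMIs of Pdgfra (x axis) and of Dpt plus Mfap5 (y axis) in each member, both with 1 added and on log scales, with a small random shift of each point and 1 panel per library. The dashed line marks equal amounts: most members lie above it, the 10, 5 and 8 Pdgfra-high members lie below it together with a few members of too few UMIs, and members with 3 or more Adamdec1 UMIs (magenta) sit in the lower part of the same cloud.

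The Pdgfra-high members were checked against markers of the fibroblasts that lie under the epithelium. Foxl1, a transcription factor that marks those cells, had 0, 4 and 0 UMIs over all members. Summed over 15 such markers the level was 719, 767 and 740 CPM in Pdgfra-high members and 451, 461 and 428 CPM in Dpt Mfap5 members. The Pdgfra-high values came from 54, 23 and 21 UMIs. Members of neither subtype stood at 1300, 1009 and 561 CPM, from 68, 29 and 51 UMIs. The label of a subepithelial cell was therefore not given to Pdgfra-high members. Over all members 15 adventitial markers such as Pi16, Ly6a and Cd34 summed to 6750, 12054 and 9736 CPM. Genes that were higher in Pdgfra-high than in Dpt Mfap5 members of each library included Kitl, the ligand of the receptor Kit, at 293, 267 and 458 against 65.8, 66.3 and 53.3 CPM. Tnc, an extracellular matrix glycoprotein, stood at 306, 100.1 and 352 against 44.9, 28.1 and 48.3 CPM, and Gucy1a1, a subunit of the nitric oxide receptor, at 199.8, 167 and 458 against 69.0, 33.1 and 14.9 CPM. Ptx3, a secreted pattern-recognition protein, had no UMI in Pdgfra-high members and stood at 113, 168 and 156 CPM in Dpt Mfap5 members. These values rest on 75078, 29983 and 28392 UMIs of Pdgfra-high members, and on as few as 3 UMIs for Tnc in BT WT. Colonocyte markers stood at 1239, 8905 and 740 CPM in Pdgfra-high members and at 2152, 1546 and 2003 CPM in Dpt Mfap5 members. The BT WT value of Pdgfra-high members came from 267 UMIs. T cell markers had 21, 0 and 0 UMIs in Pdgfra-high members. The part of this RNA in the subtype levels was not tested.

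A sharper division ran along Adamdec1, which codes for a secreted metalloprotease of the ADAM family. It was found while looking at the values, so it is a description with no test. At least 3 Adamdec1 UMIs were found in 18 of 151 PBS members (11.9%, 7.22 to 18.2%), in 39 of 206 BT WT members (18.9%, 13.8 to 25%) and in 26 of 400 BT mutant members (6.50%, 4.29 to 9.38%). The number hardly moved with the cut: 18, 40 and 29 members had at least 2, and 18, 37 and 24 had at least 5. Of the Adamdec1 members 16, 32 and 21 had been placed in the Dpt Mfap5 subtype, so that cut did not find them. As a share of kept barcodes they made up 0.563%, 0.552% and 0.424%, while the other members made up 4.16%, 2.36% and 6.09%.

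The Adamdec1 members carried signals for epithelium and lymphocytes. Without mixed barcodes, they were 17, 36 and 25 cells with 113804, 187259 and 122192 UMIs. Bmp4, a bone morphogenetic protein, stood at 1336, 1234 and 1146 CPM in them against 149, 146 and 155 CPM in the other members. Its relative Bmp5 was at 237, 171 and 286 against 8.28, 4.36 and 3.27 CPM. The chemokine Cxcl12, which holds leukocytes that bear Cxcr4, stood at 1995, 2152 and 2038 against 209, 190 and 197 CPM. Cxcl13, the B cell attracting chemokine, was at 2742, 630 and 728 against 67.7, 18.9 and 9.41 CPM, and Igfbp3, a binding protein of insulin-like growth factors, at 2856, 2222 and 1719 against 108, 43.6 and 54.8 CPM. In each library more UMIs of Cxcl13, Igfbp3 and Bmp5 lay in these few cells than in all other members together. Ncam1, an adhesion molecule, was 20.4 (13 to 32.6), 18.2 (12.2 to 27.6) and 21.8 (15.5 to 30.7) times higher in them.

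Genes that led the other members were nearly absent from the same cells. Pi16, a peptidase inhibitor, had 0, 0 and 1 UMI in the Adamdec1 members and stood at 597, 1136 and 854 CPM in the others. That is at least 22.6-fold lower in PBS and at least 70.9-fold lower in BT WT, taking 3 UMIs in the library's Adamdec1 members as the floor. Gas1, a membrane protein that binds hedgehog ligands, had no UMI in any of the 3 libraries against 862, 385 and 504 CPM. Cd81, a tetraspanin used to sort gut fibroblasts, had 1, 2 and 1 UMI against 388, 586 and 457 CPM, and Ebf1, a transcription factor, had 1, 0 and 1 UMI against 588, 907 and 809 CPM. By contrast Pdgfra stood at 633, 374 and 557 CPM in the Adamdec1 members and at 693, 396 and 556 CPM in the others, and Col3a1 at 1494, 3263 and 2152 against 1657, 3876 and 1918 CPM. Pdgfra and Col3a1 thus differed by at most 1.19-fold between these cells and the others, while Mfap5 was lower in them, at 105, 235 and 393 against 942, 1944 and 1693 CPM. Pdgfra, Col3a1 and Mfap5 were among the genes that chose the members, in both groups alike. Their levels are therefore a description, and the closeness of Pdgfra and Col3a1 is not read as a shared identity.

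**Figure D2:**
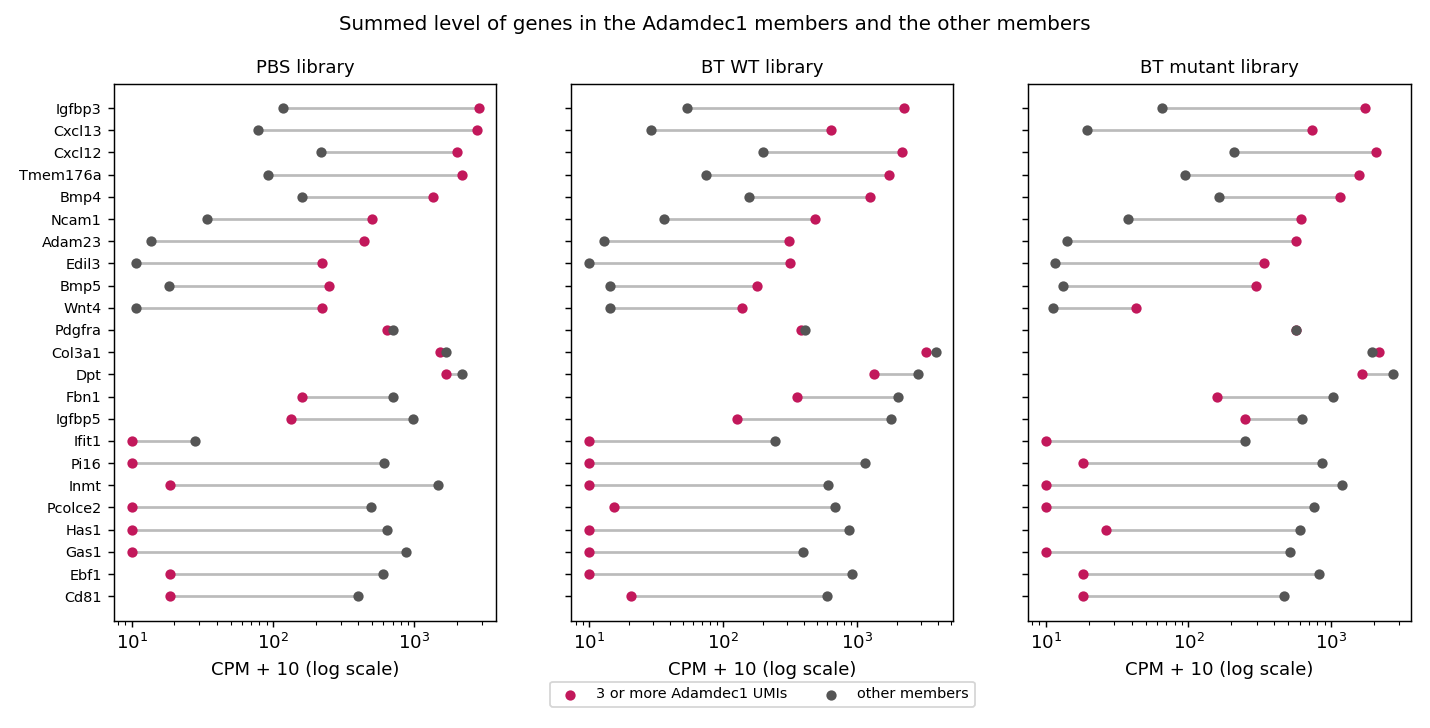
Summed level (CPM plus 10, log scale) of 23 genes in the members with 3 or more Adamdec1 UMIs (magenta) and in the other members (grey), without mixed barcodes, 1 panel per library. From Igfbp3 to Wnt4 magenta lies to the right, Pdgfra and Col3a1 lie close together, and from Ifit1 to Cd81 grey lies to the right in all 3 libraries.

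The libraries were compared by the log2 ratio of CPM with 10 CPM added, over genes with at least 30 UMIs in the members of both libraries together, and a gene was counted when it was at least 2-fold apart. The 3 comparisons share libraries pairwise. For BT WT over PBS, 93 of 9035 genes were higher (1.03%) and 196 lower (2.17%). Without mixed barcodes this was 80 (0.928%) and 115 (1.33%) of 8623. For BT mutant over BT WT, 58 of 9685 were higher (0.599%) and 35 lower (0.361%), or 44 (0.466%) and 32 (0.339%) of 9441 without mixed barcodes. For BT mutant over PBS, 42 of 9826 were higher (0.427%) and 158 lower (1.61%), or 31 (0.327%) and 93 (0.982%) of 9468. The median of all genes tested lay at 0.00, 0.01 and 0.01 log2. Of the genes lower in BT WT than in PBS, 57 of the 196 were also at least 2-fold lower in B cell barcodes. Of the 93 higher ones, 8 were also at least 2-fold higher there. The share of all genes 2-fold apart in B cell barcodes was not counted, so these overlaps cannot be weighed.

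Interferon-stimulated genes were higher in the fibroblasts of both BT libraries than in those of the PBS library. Of a list of 40, 30 could be compared between BT WT and PBS: 10 were at least 2-fold higher, none lower, and the median was 0.84 log2, beside 1.03% of all genes higher and an overall median of 0.00. Without mixed barcodes 7 of 29 were higher and the median was 0.74. Between BT mutant and PBS 9 of 32 were higher (8 without mixed barcodes), none lower, with a median of 0.75, beside 0.427% of all genes higher. Summed over 38 genes, the list stood at 1863, 3268 and 3477 CPM in members and at 483, 956 and 691 CPM in all other kept barcodes. In those the step from PBS to BT WT was no smaller than in members, while that from PBS to BT mutant was smaller. In B cell barcodes the sum was 513, 607 and 586 CPM, so both steps were smaller there than in members. Between BT mutant and BT WT members none of 32 was 2-fold apart and the median was -0.01.

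The 250 bases before the RefSeq start (assembly GRCm38.p6) are shown for 3 antiviral genes and 1 chemokine that were higher in both BT libraries, because the interferon response is switched on through short elements in such regions. Capitals mark matches to GAAANNGAAA or its reverse complement TTTCNNTTTC, the repeated GAAA of interferon response elements, searched on both strands. Ifit1 lies on the plus strand at chr19:34640639-34640888, Ifit3 on the plus strand at chr19:34583279-34583528, Isg15 on the minus strand at chr4:156200819-156201068 and Cxcl10 on the minus strand at chr5:92348890-92349139.
Ifit1: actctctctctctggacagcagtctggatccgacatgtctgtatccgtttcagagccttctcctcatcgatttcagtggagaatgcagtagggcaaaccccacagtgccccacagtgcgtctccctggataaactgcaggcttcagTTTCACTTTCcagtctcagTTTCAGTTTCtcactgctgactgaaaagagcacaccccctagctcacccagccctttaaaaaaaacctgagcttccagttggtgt
Ifit3: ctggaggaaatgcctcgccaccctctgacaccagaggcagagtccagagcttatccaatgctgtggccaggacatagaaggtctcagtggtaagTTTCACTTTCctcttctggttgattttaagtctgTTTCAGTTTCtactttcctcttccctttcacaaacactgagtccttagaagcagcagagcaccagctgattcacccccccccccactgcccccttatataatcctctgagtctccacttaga
Isg15: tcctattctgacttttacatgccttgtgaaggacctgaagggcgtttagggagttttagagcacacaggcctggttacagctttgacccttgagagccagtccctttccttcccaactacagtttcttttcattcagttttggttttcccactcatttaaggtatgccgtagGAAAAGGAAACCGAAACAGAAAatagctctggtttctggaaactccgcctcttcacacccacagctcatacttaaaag
Cxcl10: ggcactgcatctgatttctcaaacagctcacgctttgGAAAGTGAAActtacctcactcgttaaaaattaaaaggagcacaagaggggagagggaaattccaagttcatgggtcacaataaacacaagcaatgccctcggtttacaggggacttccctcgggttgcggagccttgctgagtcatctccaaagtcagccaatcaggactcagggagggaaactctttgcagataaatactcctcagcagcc
The first match in Ifit1 starts 104 bases before the gene start, and the 3 matches of Isg15 overlap each other. Of the list's genes, 29 had an entry and 15 held a match in 1 of their windows (51.7%), beside 936 of 27025 gene symbols in the table (3.46%). Among chemokines it was 3 of 14, and among fibrillar collagens and their partners 0 of 11. A match is a run of letters, not a shown binding site.

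Ifit1, whose protein binds viral RNA and blocks its translation, showed the widest difference of the named interferon genes. It stood at 15 CPM (interval 9.73 to 22.2) in PBS members, 195 (175 to 218) in BT WT and 223 (206 to 242) in BT mutant, which is 13 times (8.65 to 20.4) and 14.8 times (9.96 to 23.1) the PBS level. The 2 BT libraries differed by less than counting error (ratio 1.14, 0.996 to 1.31). It was found in 7, 36 and 92 members, and no 1 member held more than 13% of its UMIs in a BT library. With each member thinned to 2000 UMIs, leaving out 4, 13 and 49 shallower ones, 2.04% (0.423 to 5.85%), 14.0% (9.43 to 19.7%) and 14.5% (11 to 18.7%) of members had an Ifit1 UMI. In B cell barcodes thinned alike this share was 0.203%, 0.826% and 0.553%, so the share in members lay above it in each library. Reads of Ifit1 may include its near-identical copy Ifit1bl1.

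Ifit1 was not spread over all fibroblasts. The Adamdec1 members had no Ifit1 UMI in any library, while the other members stood at 18.1, 233 and 238 CPM, which is at least 14.5-fold higher in BT WT and at least 9.70-fold in BT mutant. At the PBS level the floor of 26.4 CPM allows no comparison. Ifitm3, a membrane protein that blocks virus entry, was spread over both: 1011, 1159 and 1195 CPM in Adamdec1 members and 939, 1407 and 1628 CPM in the others. Leaving out the Adamdec1 members and the mixed barcodes, the list's median was 0.77 log2 for BT WT over PBS and 0.77 for BT mutant over PBS.

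Other antiviral genes were also lower in PBS than in both BT libraries. Ifit3, a partner of Ifit1, stood at 9.62, 37.4 and 45.1 CPM in PBS, BT WT and BT mutant members, and its reads may be split with Ifit3b. Isg15, a ubiquitin-like protein, stood at 19.2, 57.3 and 55.7 CPM, and Rtp4 at 6.01, 28.3 and 30.8 CPM. For all 3 the PBS interval did not overlap that of either BT library. Irf7, the transcription factor that amplifies interferon production, was at 23.5, 66.9 and 65.2 CPM, but all other kept barcodes had it at 30.2, 99.6 and 75 CPM, so the same order was seen outside the fibroblasts. Among abundant genes Ifi27l2a stood at 697, 1348 and 1886 CPM, found in 130, 189 and 348 members, with 85.5, 52.9 and 83.3 CPM in other barcodes. Bst2, which tethers budding viruses, had 61.3, 110 and 137 CPM.

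Class I antigen presentation genes, which interferon also raises, did not pass 2-fold. Of 16 genes compared between BT WT and PBS none was 2-fold apart (1 without mixed barcodes), 15 lay above 0 and the median was 0.52 log2. Among all genes 50.8% lay above 0, 1.03% were at least 2-fold higher and 2.17% lower. A count of none in 16 therefore does not set the list apart from other genes. B2m, the light chain of class I molecules, stood at 927, 1346 and 955 CPM, and H2-D1, a heavy chain whose reads can be shared with other H2 genes, at 619, 995 and 750 CPM. For BT mutant over PBS none of 16 was 2-fold apart and the median was 0.20, beside 0.427% of all genes higher and 1.61% lower. The BT mutant level of B2m was 1.03 times the PBS level (0.966 to 1.10). Between BT mutant and BT WT none was 2-fold apart, beside 0.599% of all genes higher and 0.361% lower. The median was -0.31 over 16 genes, with 15 of them below 0, beside 49.3% of all genes.

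**Figure D3:**
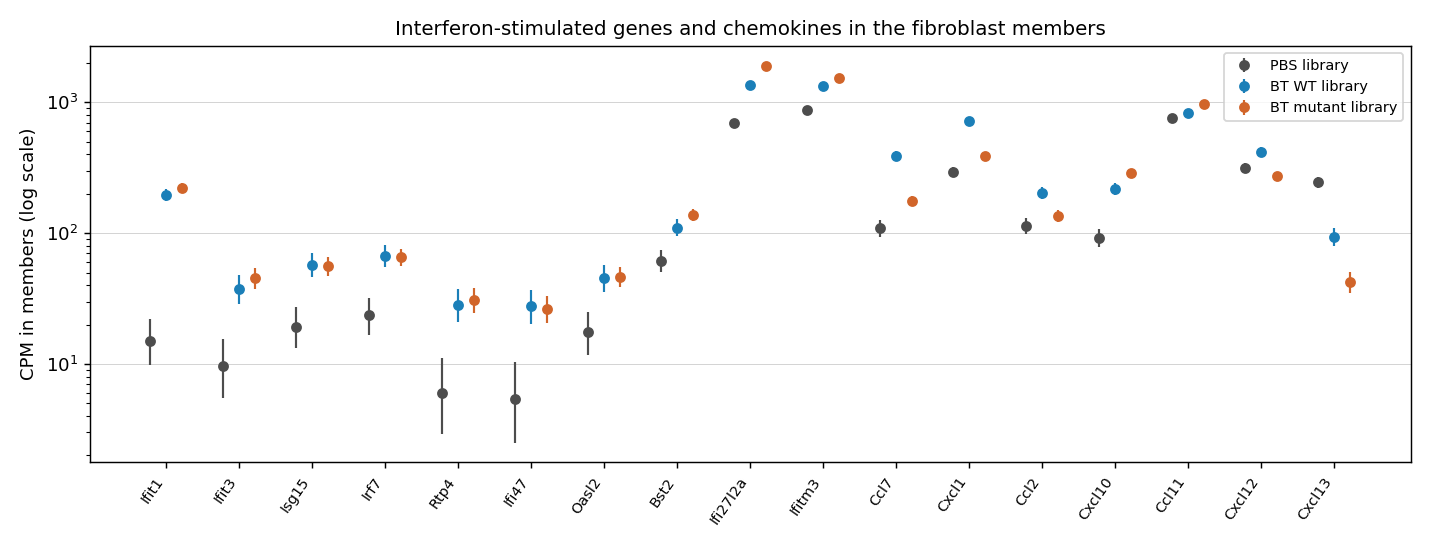
Level (CPM, log scale) of 10 interferon-stimulated genes and 7 chemokines in the members of each library, with exact Poisson 95% intervals that cover counting error. For Ifit1 to Oasl2 both BT libraries lie above PBS and close to each other, whereas Ccl7 and Cxcl1 are highest in BT WT and Cxcl13 is highest in PBS.

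Of 13 chemokines compared, 7 were at least 2-fold higher in BT WT than in PBS and 1 lower (median 1.16). For all genes these shares were 1.03% and 2.17%. The 7 were Ccl4, Ccl7, Ccl8, Cxcl1, Cxcl2, Cxcl10 and Cxcl14, and the lower one was Cxcl13. Of 12 without mixed barcodes it was 6 and 1 (median 0.88). Between BT mutant and BT WT 5 of 13 were lower (4 of 11 without mixed barcodes) and none higher (median -0.88), beside 0.361% of all genes lower.

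Ccl7, a ligand of Ccr2 that draws monocytes, stood at 109 CPM (93.6 to 126) in PBS, 391 (361 to 422) in BT WT and 176 (161 to 193) in BT mutant members. The BT WT level was 3.59 times the PBS level (3.04 to 4.26), and the BT mutant level was 0.451 times that of BT WT (0.400 to 0.508). It was found in 25, 76 and 88 members, and at 2000 UMIs per member in 7.48%, 23.8% and 12.8% of them. Cxcl1, which draws neutrophils, showed the same order at 292, 724 and 390 CPM, and at 2000 UMIs in 26.5%, 43.5% and 31.9% of members. B cell barcodes thinned alike had Cxcl1 in 0.912%, 0.601% and 0.369%.

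Ccl2, the other main ligand of Ccr2, stood at 114, 202 and 135 CPM, but 1 BT WT member held 34.6% of its UMIs there. Cxcl10, an interferon-induced chemokine for T cells, went with the antiviral genes at 92.6, 220 and 290 CPM. Its BT mutant level was 3.13 times that of PBS (2.63 to 3.74). Ccl11, the eosinophil chemokine and the most abundant of the list, differed little at 754, 830 and 966 CPM. Cxcl2 and Ccl8 were higher in BT WT (41.0 and 44.0 CPM against 2.41 and 4.81 in PBS), yet 1 barcode held 32.4% and 52.1% of them, and other kept barcodes had 66.4 and 17.3 CPM.

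The chemokines of the Adamdec1 members had other orders. Cxcl13 was at 246, 93.5 and 42.1 CPM over all members, so BT mutant stood at 0.171 times the PBS level (0.138 to 0.211), and it was found in 23, 22 and 14 members. Within the Adamdec1 members alone the levels were 2742, 630 and 728 CPM, so PBS was highest there too. Cxcl12 over all members was at 314, 420 and 274 CPM. Within Adamdec1 members it was at 1995, 2152 and 2038 CPM and within the others at 209, 190 and 197 CPM, so the difference between libraries was smaller inside each group than over all members.

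Fibrillar collagen genes were highest in BT WT members, with the reserve that Col1a1, Col1a2, Col3a1 and Col6a1 of this list also chose the members. Of 12 genes of the list compared between BT WT and PBS, 12 lay above 0, 2 were at least 2-fold higher and the median was 0.56 log2. Of all genes 50.8% lay above 0 and 1.03% were at least 2-fold higher. For BT mutant over BT WT 11 of 13 listed genes lay below 0, with 1 at least 2-fold lower, 1 higher and a median of -0.48. Of all genes 49.3% lay below 0, 0.361% were lower and 0.599% higher. For BT mutant over PBS the list's median was 0.28 with all members and 0.16 without mixed ones, and none of 13 was 2-fold apart.

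Col3a1, the main chain of type III collagen, stood at 1488 CPM (1430 to 1547) in PBS, 3682 (3590 to 3776) in BT WT and 1843 (1792 to 1894) in BT mutant members. The BT WT level was 2.48 times that of PBS (2.36 to 2.59), and the BT mutant level 0.500 times that of BT WT (0.482 to 0.520). Since Col3a1 belongs to the 9 choosing genes, this is a description. At 2000 UMIs per member the median was 1, 5 and 2 Col3a1 UMIs, with quartiles of 0 to 3, 3 to 9 and 1 to 5. Col1a1 and Col1a2, the chains of type I collagen, followed at 792, 1587 and 832 CPM and at 1689, 3044 and 1963 CPM.

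Col5a3, a regulatory chain of type V collagen that the rule did not use, stood at 25.9 (18.7 to 34.8), 121 (104.5 to 138) and 53.5 (45.2 to 62.9) CPM, with no overlap of the intervals. It was found in 30, 94 and 93 members. Of 18 genes of collagen processing and crosslinking, 2 were at least 2-fold higher in BT WT than in PBS (median 0.39). In BT mutant 1 of the 18 was lower than in BT WT (median -0.21). For all genes these shares were 1.03% and 0.361%. Serpinh1, the collagen chaperone, was at 334, 938 and 447 CPM and Pcolce, which speeds the cutting of procollagen, at 229, 514 and 344 CPM. Sparc, a collagen-binding matricellular protein, was at 1720, 4076 and 2549 CPM. Lox, an enzyme that crosslinks collagen, ran the other way at 133, 70.0 and 93.1 CPM, while its relative Loxl1 was at 201, 365 and 215 CPM.

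Microfibril and elastic fibre genes were mixed. Fbn1, the scaffold of microfibrils, was at 592, 1713 and 927 CPM, found in 117, 164 and 294 members. Mfap5, which binds Fbn1 and was used by the rule, was at 790, 1655 and 1542 CPM. Mfap4, by contrast, was highest in PBS at 313, 122 and 159 CPM. Eln, the elastic fibre protein itself, was at 291, 126 and 83.2 CPM, but 1 PBS member held 51.0% of it. Prg4, a joint and surface lubricant, was at 58.9, 6.03 and 2.56 CPM, in 21, 8 and 7 members. It is also a mesothelial marker, and the 10 mesothelial markers, Prg4 and Rspo1 among them, summed to 273, 160 and 186 CPM in members against 566, 626 and 648 CPM in other kept barcodes; their part in it was not tested. Thbs4 at 79.4, 7.84 and 19.1 CPM is uncertain, since other kept barcodes had it at 76.5, 93.8 and 102 CPM and 1 PBS member held 43.9%.

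Aspn, Ccn2 and Fn1 stood higher in both BT libraries than in PBS. Aspn, a small proteoglycan that binds collagen, was at 250, 567 and 675 CPM (BT mutant 2.70 times PBS, 2.43 to 3.01) and Ccn2, a matricellular protein, at 250, 588 and 631 CPM, with 18.3% of the PBS UMIs in 1 member. Fn1, fibronectin, was at 623, 1085 and 1176 CPM. Of the 15 adventitial markers 14 lay above 0 for BT WT over PBS and 4 were at least 2-fold higher (median 0.64). Of all genes 50.8% lay above 0 and 1.03% were at least 2-fold higher. Between BT mutant and PBS 1 of the 15 was higher and 1 lower (median 0.61), beside 0.427% and 1.61% of all genes. Without mixed barcodes 0 of the 15 were higher and 1 lower. The stem and progenitor antigen Ly6a was at 633, 1468 and 1225 CPM, and Pi16 at 501, 959 and 769 CPM, found in 73, 108 and 230 members. Reads of Ly6a can be shared with Ly6c1, which stood at 238, 585 and 473 CPM.

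**Figure D4:**
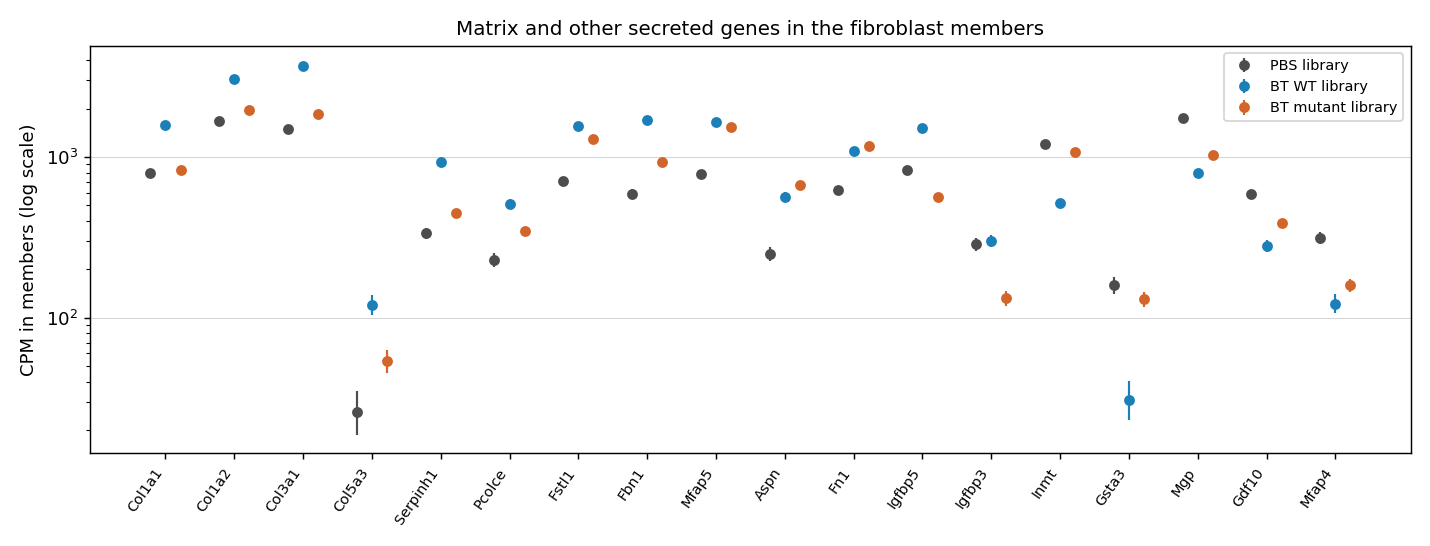
Level (CPM, log scale) of 18 matrix and other secreted genes or enzymes in the members of each library, with exact Poisson 95% intervals that cover counting error. From Col1a1 to Fbn1 BT WT is highest, from Mfap5 to Fn1 both BT libraries lie above PBS, and Inmt, Gsta3 and Gdf10 are lowest in BT WT.

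Gsta3, Galnt15, Fmo2, Inmt and Dpep1 were lowest in BT WT, with PBS and BT mutant closer to each other, and are given together for that order and not as a list. Gsta3, a glutathione transferase whose reads can be shared with its close relatives, stood at 159 (140 to 179), 30.8 (22.9 to 40.4) and 130 (117 to 145) CPM. The BT mutant level was 4.24 times that of BT WT (3.16 to 5.80). Galnt15, which starts sugar chains on proteins, was at 387, 130 and 362 CPM, and Fmo2, a flavin monooxygenase, at 1512, 772 and 1581 CPM. Inmt was at 1207, 514 and 1078 CPM, found in 103, 93 and 219 members. Inmt had 1, 0 and 0 UMIs in Adamdec1 members, which were most frequent in BT WT, and among the other members it stood at 1445, 596 and 1170 CPM, so the order held without them. Dpep1, a membrane dipeptidase, was at 464, 252 and 489 CPM, with 221, 161 and 313 CPM in other kept barcodes.

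Some genes were lowest in BT mutant members. Igfbp5, another binding protein of insulin-like growth factors, stood at 827, 1507 and 568 CPM, and the BT mutant level was 0.377 times that of BT WT (0.353 to 0.401). Spon2, a secreted matrix protein, was at 140, 166 and 52.4 CPM in 65, 102 and 87 members. Mmp3, a matrix protease, and Ptn, a heparin-binding growth factor, were at 86.0, 180 and 82.1 CPM and at 109, 137 and 59.4 CPM, but each rested on few cells: 16, 17 and 33 members for Mmp3, with 50.3% of the PBS UMIs in 1. Mmp3 is better read as highest in BT WT, since its PBS and BT mutant levels were close to each other. Cxcl14 at 16.8, 63.3 and 5.50 CPM had 34.3% of its BT WT UMIs in 1 member. Col15a1, a basement membrane collagen, was at 104, 115 and 50.6 CPM over all members and at 94.8, 77.0 and 34.4 CPM without Adamdec1 members and mixed barcodes, so BT mutant was lowest in both. Igfbp3 was at 287, 302 and 132 CPM over all members and at 108, 43.6 and 54.8 CPM without them, so PBS was highest there and BT mutant was no longer below BT WT.

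Among Wnt pathway genes more lay below than above 0 for BT WT over PBS, with few of them 2-fold apart. Of 13 compared between BT WT and PBS 1 was higher and 1 lower (median -0.20), beside 1.03% and 2.17% of all genes. Below 0 were 9 of the 13, beside 49.2% of all genes. Without Adamdec1 members and mixed barcodes 2 of 11 lay above 0 (median -0.51). For BT mutant over BT WT 9 of 15 lay above 0 (median 0.14). Wnt2, a Wnt ligand, stood at 4.21 (1.69 to 8.67), 41.6 (32.4 to 52.7) and 21.2 (16.1 to 27.5) CPM, in 6, 42 and 35 members, so it was found in both BT libraries above PBS. Wnt4, which lay in the Adamdec1 members, was at 15, 18.1 and 2.56 CPM over all members and at 211, 128 and 32.7 CPM within the Adamdec1 members, from 24, 24 and 4 UMIs. Rspo3, which strengthens Wnt signals to stem cells, was at 67.4, 108 and 120 CPM, while its relative Rspo1, also a mesothelial marker, was at 53.5, 21.1 and 33.0 CPM. Sfrp4 and Dkk3, secreted Wnt regulators, were highest in PBS, at 109, 66.3 and 37.0 CPM and at 98.0, 56.7 and 30.4 CPM, with 37.6% of the PBS Sfrp4 in 1 member.

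BMP ligands differed from each other. Of 19 genes of BMP and TGF-beta signalling compared between BT WT and PBS 2 were at least 2-fold higher and none lower (median 0.24). For all genes these shares were 1.03% and 2.17%. Bmp6 was at 19.8, 68.1 and 40.3 CPM, with 3.43 times the PBS level in BT WT (2.31 to 5.23). Gdf10, a distant relative of the BMPs, ran the other way at 585, 280 and 389 CPM. Bmp4 was at 230, 273 and 193 CPM over all members. Grem1, which traps BMPs, was at 23.5, 42.2 and 60.1 CPM, but 1 of its 6 positive PBS members held 69.2%. Id1, a target gene of BMP signals, was at 84.2, 38.6 and 19.8 CPM, with 33.6% of the PBS UMIs in 1 member and 223, 241 and 246 CPM in other kept barcodes.

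Complement genes had no common order: 3 of 14 were at least 2-fold higher and 2 lower in BT WT than in PBS (median 0.35). For all genes these shares were 1.03% and 2.17%. Without mixed barcodes 2 of 13 complement genes were higher and 2 lower. The lower ones include Cfd, which lay mostly in the PBS barcode with fat cell RNA, and the higher ones include the macrophage gene C1qa. C3, the central component, stood at 1673, 2114 and 2414 CPM, and C4b at 345, 446 and 614 CPM. C7, a part of the membrane attack complex, was at 28.3 (20.8 to 37.6), 97.1 (82.7 to 113) and 159 (144 to 174) CPM, in 27, 55 and 116 members. Cd55, which shields cells from complement, was at 358, 928 and 715 CPM. Among cytokines Il33, an alarmin, was at 124, 141 and 180 CPM and Il6 at 191, 118 and 147 CPM, and none of 16 genes of the list was 2-fold apart between BT WT and PBS.

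Nuclear genes of oxidative phosphorylation were all lower in BT WT than in PBS members by less than 2-fold. Below 0 were 27 of 27 (median -0.48), beside 49.2% of all genes. Without mixed barcodes it was 26 of 27 (median -0.42). In BT mutant 25 of 27 were higher than in BT WT (median 0.33), beside 50.7% of all genes. In Adamdec1 members the order was not seen: 11 of 21 genes lay above 0 for BT WT over PBS (median 0.00). Of the 1514 genes compared there in all, 780 lay above 0. The median there was 0.02 for BT mutant over BT WT. Cox7c, a subunit of cytochrome oxidase, stood at 695, 457 and 660 CPM in members and at 2111, 1182 and 2200 CPM in all other kept barcodes, so BT WT was also lowest outside the fibroblasts. Nr4a1, an early-response transcription factor, was at 798, 402 and 411 CPM in members and at 271, 168 and 102 CPM in the others. It did not stand for its list of 24 immediate early genes. Of 23 compared between BT WT and PBS none was 2-fold apart, 11 lay above 0 and the median was -0.01. Without mixed barcodes 2 of 23 were lower (median -0.15). For BT mutant over PBS 2 of 23 were lower and none higher (median -0.20), beside 1.61% of all genes lower. The small RNA Bc1 was at 279, 84.4 and 26.4 CPM in members and 50.6, 17.3 and 3.24 CPM in the others, and what sets it was not tested.

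**Figure D5:**
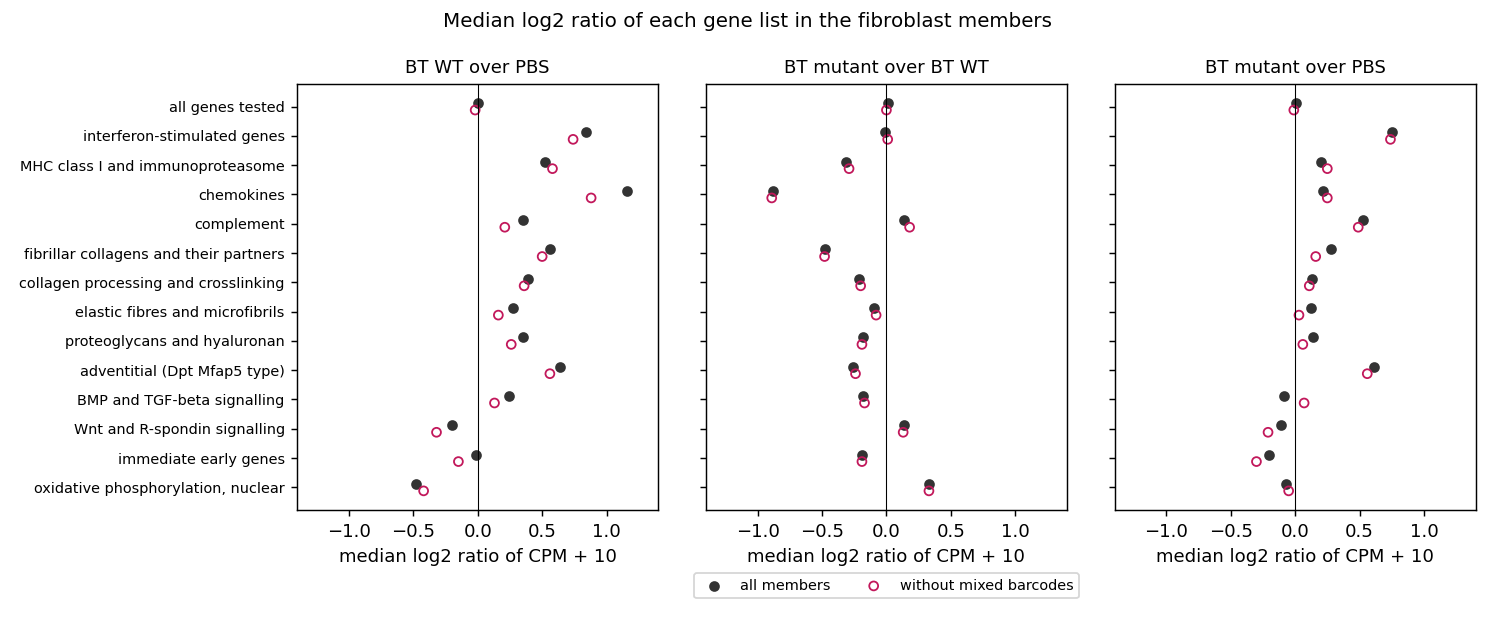
Median log2 ratio (CPM plus 10) over the tested genes of each list in the members, for the 3 comparisons, with all members (filled) and without mixed barcodes (open). Interferon-stimulated genes lie at 0.84 and 0.75 for the BT libraries over PBS and at -0.01 for BT mutant over BT WT, where chemokines lie at -0.88 and fibrillar collagens at -0.48.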

How the data were processed

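Colon cells of 3 libraries, 1 per group, were measured by droplet 3′ RNA sequencing. The deposited values are raw UMI counts per gene and barcode from Cell Ranger 5.0.0, per the file headers; STAR and the mouse build mm10 are named per the submitters' processing notes. Rows sharing a symbol were summed (32285 to 32245).

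UMIs were summed over the members of each library and scaled to CPM. Ratios took 10 CPM as pseudocount, over genes with at least 30 UMIs in both libraries together, and a gene at least 2-fold apart was counted. Shares have exact Clopper-Pearson, levels exact Poisson and ratios exact conditional binomial 95% intervals, which cover counting error only. A count of 0 was given a floor of 3 UMIs. No doublet caller was run; mixed barcodes were left out as an alternative. Simulated sums held counting error alone, with no spread between cells. The changed genes were drawn from those expected at 2 times the limit of 30 UMIs or more, so genes nearer the limit were not covered. For BT WT over PBS (9019 genes), 100% of 50 genes raised 4-fold and 89.8% of 49 lowered 4-fold were recovered. At 3-fold it was 90% of 50 raised and 72% of 50 lowered. For BT mutant over BT WT (9680 genes) 98% of 50 raised and 87.8% of 49 lowered 4-fold were recovered. For BT mutant over PBS (9779 genes) 78% of 50 genes lowered 4-fold were.

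The members and gene lists were chosen with earlier results of these data known. Named genes were taken from the 12 highest and 12 lowest per comparison. These had at least 50 UMIs, at least 50 CPM, an interval excluding 1 and at least the level of other barcodes. Per list, named genes were taken from the most abundant gene and the 2 furthest apart. The other genes named, the Adamdec1 division and the mixed rule were chosen after their values were seen. Python 3.11.15, numpy 2.4.6, scipy 1.17.1 and pandas 2.3.3 were used.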

Additional observations from a re-analysis of the deposited data

How the results depend on the processing

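No paired analysis was possible because there is 1 library per group and no replicate numbers, and for the same reason no replicate could be left out. Over 95 genes evaluated, some of them not named above, 109 values were at least 2-fold apart. Of these values, 57 stayed at least 2-fold apart in every alternative that gave a value and 104 kept their sign. The median of interferon-stimulated genes ranged from 0.61 to 1.01 for BT WT over PBS and from 0.59 to 1.14 for BT mutant over PBS over the alternatives. The mixed-barcode and Adamdec1 alternatives were chosen after seeing the data. The Pdgfra-high subtype rests on 5 to 10 cells a library, and in BT WT these cells held colonocyte markers at 8905 CPM.

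Counts of genes at least 2-fold apart, as higher and lower, depended on the pseudocount and on a few deep cells. With a pseudocount of 1 they were 253 and 388 for BT WT over PBS, 213 and 110 for BT mutant over BT WT, and 206 and 310 for BT mutant over PBS. With at least 100 UMIs, 60 were higher and 114 lower for BT WT over PBS, 33 and 21 for BT mutant over BT WT, and 104 lower for BT mutant over PBS. Without the 5% deepest members, 106 were lower for BT WT over PBS, 32 higher for BT mutant over BT WT, and 22 higher and 83 lower for BT mutant over PBS. Lower genes for BT WT over PBS were 116 with at most 10% mitochondrial UMIs, 94 when thinned to 2000 UMIs and 115 without mixed barcodes. Those for BT mutant over PBS were 95, 82 and 93 in the same settings and 98 with equal weight per cell, and 69 were higher when thinned. In Pdgfra-high members alone 25 were higher and 100 lower for BT WT over PBS, 37 higher for BT mutant over BT WT and 64 lower for BT mutant over PBS.

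The fibrillar collagen median was 0.76 for BT WT over PBS when thinned, -0.33 for BT mutant over BT WT and 0.47 for BT mutant over PBS with equal weight per cell, and 0.12 for the last with at most 10% mitochondrial UMIs. The chemokine median for BT WT over PBS was 0.88 without mixed barcodes. In Pdgfra-high members alone the collagen medians were 0.81 for BT WT over PBS, 1.59 for BT mutant over BT WT and 1.44 for BT mutant over PBS, the chemokine median was -0.83 for BT WT over PBS and -1.46 for BT mutant over PBS, and Aspn (-1.21), Ly6a (-0.21) and Ccn2 (-2.37) for BT WT over PBS and Igfbp3 (1.88) for BT mutant over PBS had the other sign; the cause was not tested. Without Adamdec1 members Igfbp3 was at 0.41 for BT mutant over BT WT.

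Member shares in PBS, BT WT and BT mutant were 5.85%, 6.40% and 12.9% with at most 10% mitochondrial UMIs, 3.69%, 2.36% and 5.03% with no such limit, and 5.86%, 3.59% and 8.10% of non-epithelial barcodes. With at least 1000 genes they were 6.56% in PBS and 8.07% in BT mutant. The Dpt Mfap5 share was 78.9% in PBS when thinned and cut at 2 UMIs, and in BT mutant 92.8% and 86.2% with cuts at 2 and 5 UMIs and 93.4% with at least 20 UMIs of the 9 genes. The Pdgfra-high share in BT WT was 0.485% with a cut at 5 UMIs.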
